A study of Mus musculus with 6 samples.

Results

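The cyclins, kinases and inhibitors that govern the G1 phase of the cell cycle were followed as 10 genes across 6 libraries of embryonic mouse retina. They were taken by gene name from 55487 counted genes: the D-type cyclins Ccnd1, Ccnd2 and Ccnd3, the kinases Cdk4, Cdk6 and Cdk2, the inhibitors Cdkn2c, Cdkn2d and Cdkn1b, and the retinoblastoma gene Rb1. All 10 passed the filter on low counts that left 17275 genes. The study removed Foxp1, which encodes a transcription factor of the forkhead family, from the developing retina. Retinas were taken at embryonic day 16.5 from 3 Foxp1 cKO embryos and 3 control embryos of 1 litter on the C57BL/6 strain, with both eyes of an animal pooled. Every animal carried loxP-flanked Foxp1 alleles (Foxp1 fl/fl), and the cKO animals also carried Six3-Cre, a recombinase driven by Six3 sequence that is active in the developing retina. Which exons the loxP sites flank is not given in the sources used here.

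In G1, mitogenic signals raise D-type cyclins, which bind Cdk4 or Cdk6 and begin to phosphorylate the retinoblastoma protein. Phosphorylated Rb releases E2F factors, which switch on cyclin E, and cyclin E with Cdk2 completes the step into S phase. Inhibitors of the INK4 family (among them p18 from Cdkn2c and p19 from Cdkn2d) bind Cdk4 and Cdk6, while p27 from Cdkn1b binds cyclin and kinase complexes. Mouse retinal progenitors are known to depend on cyclin D1, and mice without it have thin retinas. p27 and p19 are known to hold retinal neurons and glia out of the cycle.

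The libraries do not follow their labels in 2 respects that touch every direction below. Foxp1 was at 72.4, 75.5 and 68.8 CPM (counts scaled to a common library size) in cKO-labelled libraries 1, 2 and 3, against 50.8, 41.1 and 46.2 CPM in control-labelled libraries 1, 2 and 3, so its level went against the labels (log2 fold change 0.65, SE 0.065, edgeR adjusted p 4.63e-05). The authors' deposited table lists Foxp1 the other way, at a log2 fold change of -0.60 (adjusted p 6.02e-11) for cKO against control. Counts were summed over whole genes, so exons outside a deletion add to them. Counts of Xist, expressed from the inactive X, were 15165, 14143 and 1 for cKO 1, 2 and 3, and 17599, 13 and 5 for control 1, 2 and 3. Ddx3y, on the Y chromosome, had 0, 0 and 899 counts for cKO 1, 2 and 3, and 0, 802 and 871 for control 1, 2 and 3, and Eif2s3y, Kdm5d and Uty were likewise high in the same libraries. The libraries labelled cKO 2 (male) and control 2 (female) thus went against their labelled sex. The sexes read from these genes in cKO-labelled libraries 1, 2 and 3 are those that the labels give to control 1, 2 and 3, and the reverse. Groups are therefore called by their labels. Whether the group labels of the count columns are exchanged was not tested, and every direction given here would turn if they were. Fits without the libraries labelled cKO 2 and control 2 are given below. They cannot settle this, since an exchange would touch all 6 libraries, and they rest on fewer libraries per group. Depth was 23707761 to 25714620 counts per library. Markers of retinal progenitors (8 of 8 genes tested) summed to 3233 to 3538 CPM in cKO-labelled libraries and 3213 to 3408 CPM in control-labelled libraries.

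No member passed the test between the labelled genotypes. At an edgeR adjusted p of 0.05, 0 of 10 members were called, against a background of 0.781% of all tested genes (135 of 17275), and 0.486% lower in cKO-labelled libraries. limma-voom also called 0, against 0.585% of all tested genes, and DESeq2 called Cdk6, 1 of the 8 members to which it gave an adjusted p (none for Ccnd2 and Cdkn2d), against 9.61% of all genes with one. At an unadjusted edgeR p under 0.05 the members were Cdk4 and Cdk6, 2 of 10, against 16.5% of all tested genes. The CPM ranges of the groups did not overlap for Cdk4, Cdk6 and Cdkn1b, 3 of 10, against 20.1% of all tested genes. Of these, 2 were higher in cKO-labelled libraries, against 10.8%, and 1 was lower, against 9.3%. The shares lie near the background. Without the libraries labelled cKO 2 and control 2, 0 of 10 members passed, against 0.0516% of all tested genes. The median log2 fold change of the members was 0.0042, with 5 higher and 5 lower in cKO-labelled libraries, and the median of all tested genes was 0.00073. The replicates are separate animals, and in whole retinas fewer cells of a type and less RNA per cell cannot be told apart.

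**Figure D1:**
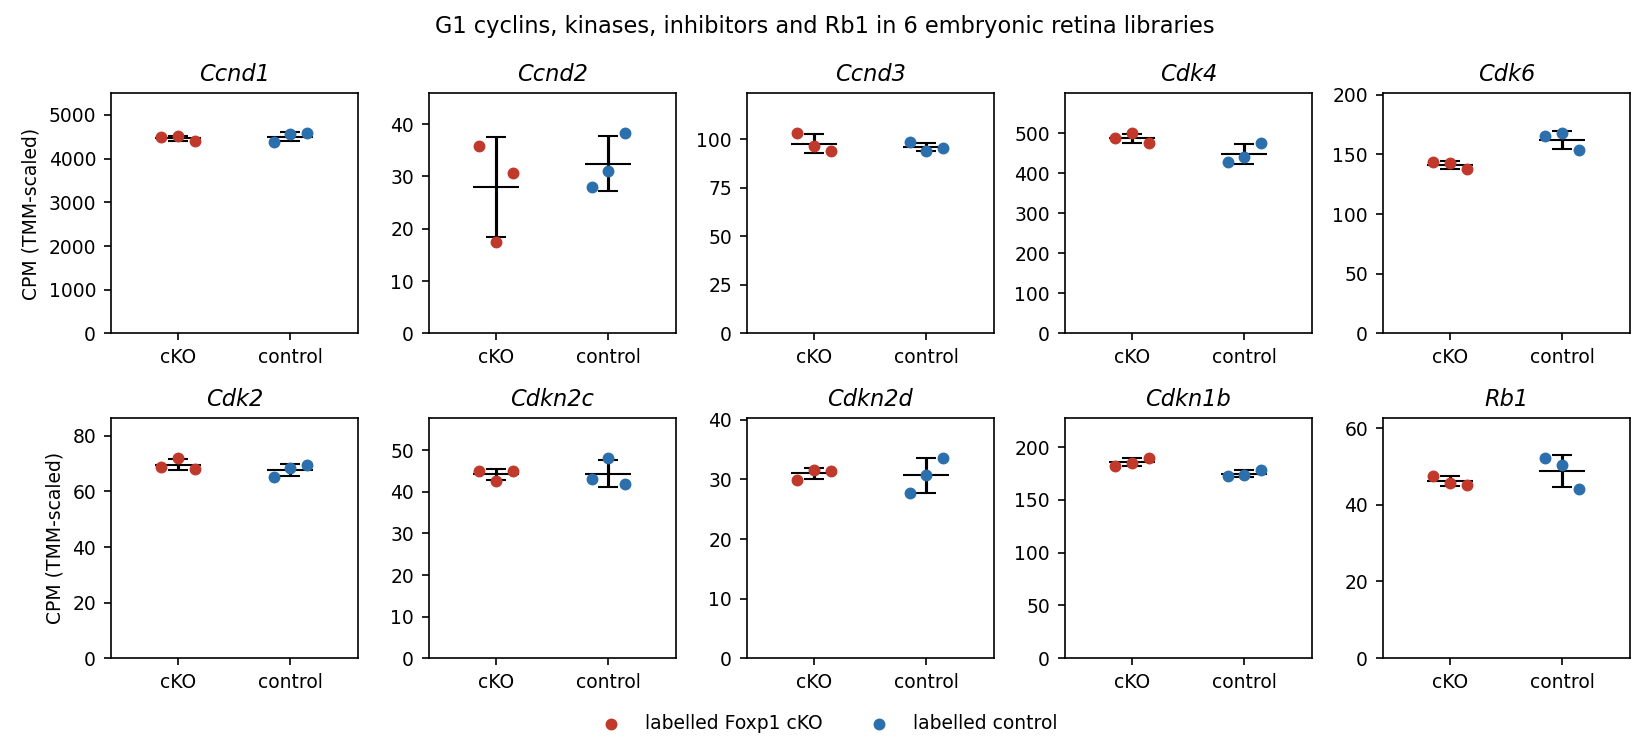
Level of each of the 10 genes in CPM (vertical axis, from 0) in the 3 libraries labelled Foxp1 cKO (left, red) and the 3 labelled control (right, blue). Points are libraries, the wide bar is the mean and the capped line is 1 SD. The red and blue points separate for Cdk4, Cdk6 and Cdkn1b, and Ccnd2 has 1 low library, labelled cKO 2, at 17.4 CPM.

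Because Cdk4, Cdk6 and Cdkn1b were the members whose groups did not overlap, the sequence before their transcription starts is shown. It is taken from RefSeq (build GRCm38.p6), 5′ to 3′ on the plus strand, as the longest stretch of the 250 bases before the start that no GENCODE exon covers, which for Cdk6 is the 104 bases next to the start. The RefSeq start of Cdk6 lies inside the GENCODE gene span given further on, not at its first base. The windows are chr10:127063285-127063533 for Cdk4, chr5:3343789-3343892 for Cdk6 and chr6:134920151-134920400 for Cdkn1b. Capitals mark CACGTG, the E-box read by Myc and related factors, and CCAAT, the letters of CCAAT boxes, on either strand.
Cdk4: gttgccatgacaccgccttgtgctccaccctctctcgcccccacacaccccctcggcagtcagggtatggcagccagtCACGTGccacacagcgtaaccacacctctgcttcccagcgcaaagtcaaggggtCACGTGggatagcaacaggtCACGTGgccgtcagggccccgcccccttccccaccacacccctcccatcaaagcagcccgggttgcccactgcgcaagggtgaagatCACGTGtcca
Cdk6: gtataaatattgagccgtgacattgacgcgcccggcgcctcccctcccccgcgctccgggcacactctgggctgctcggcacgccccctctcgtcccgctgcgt
Cdkn1b: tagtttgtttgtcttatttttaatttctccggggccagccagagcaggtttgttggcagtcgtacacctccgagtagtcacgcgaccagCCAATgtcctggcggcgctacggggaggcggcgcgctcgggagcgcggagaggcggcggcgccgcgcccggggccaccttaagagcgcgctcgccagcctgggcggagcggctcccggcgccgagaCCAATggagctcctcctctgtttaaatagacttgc

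The Cdk4 window held CACGTG at 4 places, each counted once since the letters read the same on both strands. Over windows of 300 bases, from 250 before to 50 after the start, 7.15% of 32851 RefSeq promoter windows held CACGTG at least once, and 8 windows held it 4 or more times. The Cdk6 promoter window of 300 bases held it once, outside the stretch printed. CCAAT stood 2 times in the printed Cdkn1b stretch and 3 times in its window of 300 bases, and 37.4% of all windows held it. The E2F letters TTTCGCGC or TTTGGCGC were in 0 of the 9 windows of the members, against 0.813% of all windows. TGTTTAC, letters of forkhead sites, was in 1 of the 9, an upstream start of Ccnd3, against 3.65% of all windows. RefSeq windows were at hand for 7 of the 10 members, all but Ccnd1, Ccnd2 and Rb1. These are letter matches and not measured binding.

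Cyclin D1 was by far the most abundant of the members. Ccnd1 (ENSMUSG00000070348, chromosome 7, 144929931 to 144939925, minus strand, mm10, GENCODE M21) ranked 3 of the 17275 tested genes by mean CPM and 21 by CPM per kilobase of exon. It was at 4488, 4512 and 4401 CPM in cKO-labelled libraries 1, 2 and 3, and at 4377, 4561 and 4575 CPM in control-labelled libraries 1, 2 and 3. The groups overlapped and all 6 libraries lay within 1.05-fold. The log2 fold change was -0.012 (SE 0.045, 95% interval -0.11 to 0.082, edgeR adjusted p 0.935), so the interval reaches 0.929-fold and 1.06-fold.

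Cyclins D2 and D3, which can stand in for cyclin D1 in binding Cdk4 and Cdk6, were far lower. Ccnd3 (ENSMUSG00000034165, chromosome 17, 47505051 to 47599691, plus strand) was at 103, 96.8 and 93.8 CPM in cKO-labelled libraries, against 98.6, 94.1 and 95.6 CPM in control-labelled libraries. The groups overlapped, and the log2 fold change was 0.027 (SE 0.047, 95% interval -0.07 to 0.12, edgeR adjusted p 0.840). Without the libraries labelled cKO 2 and control 2 it was 0.020 for Ccnd3 and -0.0099 for Ccnd1. The annotation names a processed pseudogene, Ccnd3-ps, so some Ccnd3 reads may be counted there.

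Ccnd2 (ENSMUSG00000000184, chromosome 6, 127125162 to 127152193, minus strand) was the member that varied most between libraries. It had 917, 419 and 774 counts in cKO-labelled libraries 1, 2 and 3, against 669, 771 and 906 in control-labelled libraries 1, 2 and 3. In CPM these were 35.9, 17.4 and 30.6 for the cKO label and 28.0, 31.1 and 38.2 for the control label. The library labelled cKO 2 was the lowest of the 6, the library labelled control 3 the highest, and the groups overlapped. The highest library was 2.19 times the lowest, while the median gene of 10 to 100 CPM spanned 1.17-fold and 0.533% of 7881 such genes spanned more than Ccnd2.

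The difference of Ccnd2 between the groups could not be fixed closely. Its log2 fold change was -0.21 (SE 0.32, 95% interval -1.10 to 0.67, edgeR adjusted p 0.827), and it was 0.036 without the library labelled cKO 2. Without both libraries that go against their labelled sex it was 0.0069. The library labelled cKO 2 also had the lowest summed markers of lens, skeletal muscle and optic nerve glia. Endothelial markers were narrowly lowest there too, at 297.1 CPM against 297.9 CPM in the library labelled cKO 1. For pigment epithelium, microglia, erythroid cells and periocular mesenchyme another library was lowest. Lens markers (8 of 9 tested) summed to 56.0, 17.3 and 259 CPM in cKO-labelled libraries 1, 2 and 3, against 61.1, 254 and 930 CPM in control-labelled libraries 1, 2 and 3. Lim2 of this list was at 0 in cKO-labelled libraries 1 and 2. Skeletal muscle markers (6 of 7 tested, none at 0) summed to 7.73 to 12.4 CPM in cKO-labelled libraries against 8.62 to 28.8 CPM in control-labelled libraries. Optic nerve glia markers (3 of 4 tested) summed to 12.5, 6.82 and 11.7 CPM for cKO 1, 2 and 3, against 13.8, 10.9 and 11.8 CPM for control 1, 2 and 3, with S100b at 0 in the library labelled cKO 2. Among them Pax2, a factor of the optic stalk and disc, was at 2.54 CPM in the library labelled cKO 2 and at 6.28 to 9.41 CPM in the other 5. Aldh1l1 of the same list was not low in the library labelled cKO 2, at 3.95 CPM against 2.94 to 4.11 CPM in the other 5. Gfap, at 0.126 to 0.948 CPM over all 6, was not lowest there either. The part of these tissues in the spread of Ccnd2 was not tested.

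Per kilobase of exon, Ccnd1 made up 98.4%, 98.7% and 98.5% of the D-type cyclin level in cKO-labelled libraries 1, 2 and 3, and 98.5%, 98.6% and 98.5% in control-labelled libraries 1, 2 and 3. Ccnd3 gave 1.16% ± 0.047 in cKO-labelled libraries against 1.13% ± 0.054 in control-labelled libraries, and Ccnd2 gave 0.309% ± 0.106 for the cKO label against 0.354% ± 0.051 for the control label (SD, n = 3 each). Across 8 shares and ratios tested this way over the members, Benjamini-Hochberg adjusted values were 0.2 to 0.8. The 3 cyclin shares had exact two-sided permutation p-values of 0.8, 0.5 and 0.7 for Ccnd1, Ccnd3 and Ccnd2 over 3 against 3 libraries, where the smallest possible is 0.1. The exon length used is the sum of all annotated exons, so a gene whose long untranslated forms are not in use is understated.

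**Figure D2:**
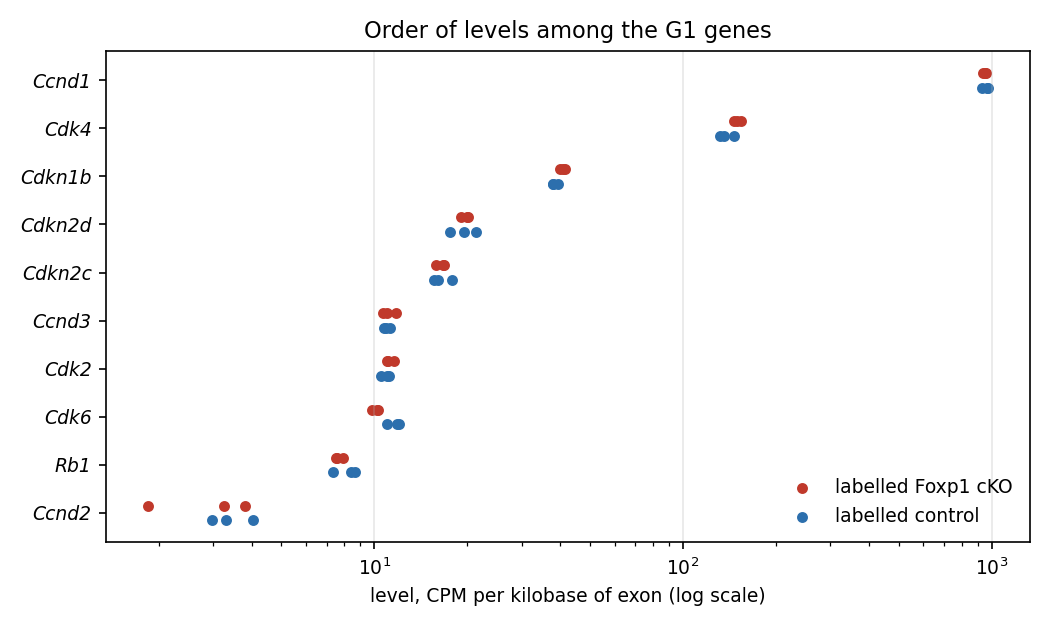
Level of each gene in CPM per kilobase of exon (horizontal axis, log scale), ordered from the highest at the top. Each point is a library, red for those labelled Foxp1 cKO and blue, just beneath, for those labelled control. Ccnd1 stands near 953, Cdk4 near 144, and Ccnd3, Cdk2 and Cdk6 share 1 level near 11.

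The order of levels per kilobase over the 6 libraries was Ccnd1 (mean 953 CPM per kilobase), Cdk4 (144), Cdkn1b (39.6), Cdkn2d (19.6), Cdkn2c (16.5), Ccnd3 and Cdk2 (11.05 each), Cdk6 (10.8), Rb1 (7.90) and Ccnd2 (3.21). The ranges over libraries did not touch between Ccnd1, Cdk4, Cdkn1b and the INK4 genes. Cdkn2d (17.7 to 21.3) and Cdkn2c (15.6 to 17.9) overlapped. Ccnd3 (10.7 to 11.7), Cdk2 (10.5 to 11.6) and Cdk6 (9.84 to 12.0) also overlapped and cannot be ordered.

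Among the kinases, Cdk6 was lower and Cdk4 higher in cKO-labelled libraries, by small amounts that did not pass the test. Cdk6 (ENSMUSG00000040274, chromosome 5, 3341485 to 3531008, plus strand) was at 143, 142 and 138 CPM in cKO-labelled libraries 1, 2 and 3, and at 165, 168 and 153 CPM in control-labelled libraries 1, 2 and 3. Every library labelled cKO lay under every library labelled control. The log2 fold change was -0.20 (SE 0.049, 95% interval -0.30 to -0.10), which ranked 163 of 17275 genes by p, with an edgeR adjusted p of 0.0548.

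Cdk4 (ENSMUSG00000006728, chromosome 10, 127063534 to 127067920, plus strand), the main partner of cyclin D1, was at 487, 499 and 476 CPM in cKO-labelled libraries 1, 2 and 3, and at 429, 440 and 475 CPM in control-labelled libraries 1, 2 and 3. The groups did not overlap, but by a narrow gap, 475.8 CPM in the library labelled cKO 3 against 474.7 CPM in the library labelled control 3. The log2 fold change was 0.12 (SE 0.053, 95% interval 0.012 to 0.23, edgeR adjusted p 0.246). Cdk2 (ENSMUSG00000025358, chromosome 10, 128697939 to 128705031, minus strand), the partner of cyclins E and A, was at 68.8, 72.0 and 68.2 CPM in cKO-labelled libraries, against 65.3, 68.5 and 69.5 CPM in control-labelled libraries. Its groups overlapped and its log2 fold change was 0.040 (SE 0.048, 95% interval -0.060 to 0.14, edgeR adjusted p 0.748), and 0.024 without the libraries labelled cKO 2 and control 2.

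The balance of the 2 cyclin D kinases does not depend on the scaling factor of a library. A trend with exon length, described below, does not cancel in it, and the ratio was not formed with that trend removed. Per kilobase, Cdk6 was at 6.83%, 6.63% and 6.72% of Cdk4 in cKO-labelled libraries 1, 2 and 3, and at 8.95%, 8.84% and 7.50% in control-labelled libraries 1, 2 and 3. The groups did not overlap, with means of 6.72% ± 0.0998 for the cKO label against 8.43% ± 0.804 for the control label (SD, n = 3 each) and an exact two-sided permutation p of 0.1, the smallest that 3 against 3 allows. Without the libraries labelled cKO 2 and control 2 the difference was -1.45 percentage points, against -1.71 with all 6. This ratio was formed after the values of both genes had been seen. Every library labelled cKO had less Cdk6 and more Cdk4 than any library labelled control. The separation of the ratio and its permutation p followed from that and are not a further result.

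The exon length of a gene moved with these differences. Cdk6 has 13989 exonic bases, 978 of them coding, which puts it at percentile 97.0 of the tested genes by length. Cdk4 has 3249, of which 909 are coding. Over 17251 tested genes with a length, which are not independent replicates, exon length and log2 fold change had a Spearman's rho of -0.27, and over the 10 members, which share their libraries, it was -0.50. Once the trend with exon length was removed from every library, the log2 fold change of Cdk6 was -0.10 (SE 0.045, edgeR adjusted p 0.374) and that of Cdk4 was 0.09 (SE 0.047, edgeR adjusted p 0.429). In that fit 0 of 10 members passed, against 0.22% of all tested genes, and Cdk6 alone had an unadjusted p under 0.05, against 12.8% of all tested genes.

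The Cdk6 call turned on the tool and on single libraries. DESeq2 gave an adjusted p of 0.00859 and limma-voom 0.0620, both at a log2 fold change of -0.20, and edgeR gave 0.00702 without the library labelled control 3. Without both libraries that go against their labelled sex the log2 fold change was -0.18 for Cdk6 (edgeR adjusted p 0.714) and 0.093 for Cdk4 (edgeR adjusted p 0.828). The authors' deposited table gives Cdk6 a log2 fold change of 0.22 (SE 0.059, adjusted p 0.00914) for cKO against control, the opposite direction, and Cdk6 is the 1 member it calls. All members but Cdkn2c, 9 of 10, have in the authors' deposited table a sign opposite to that found here.

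**Figure D3:**
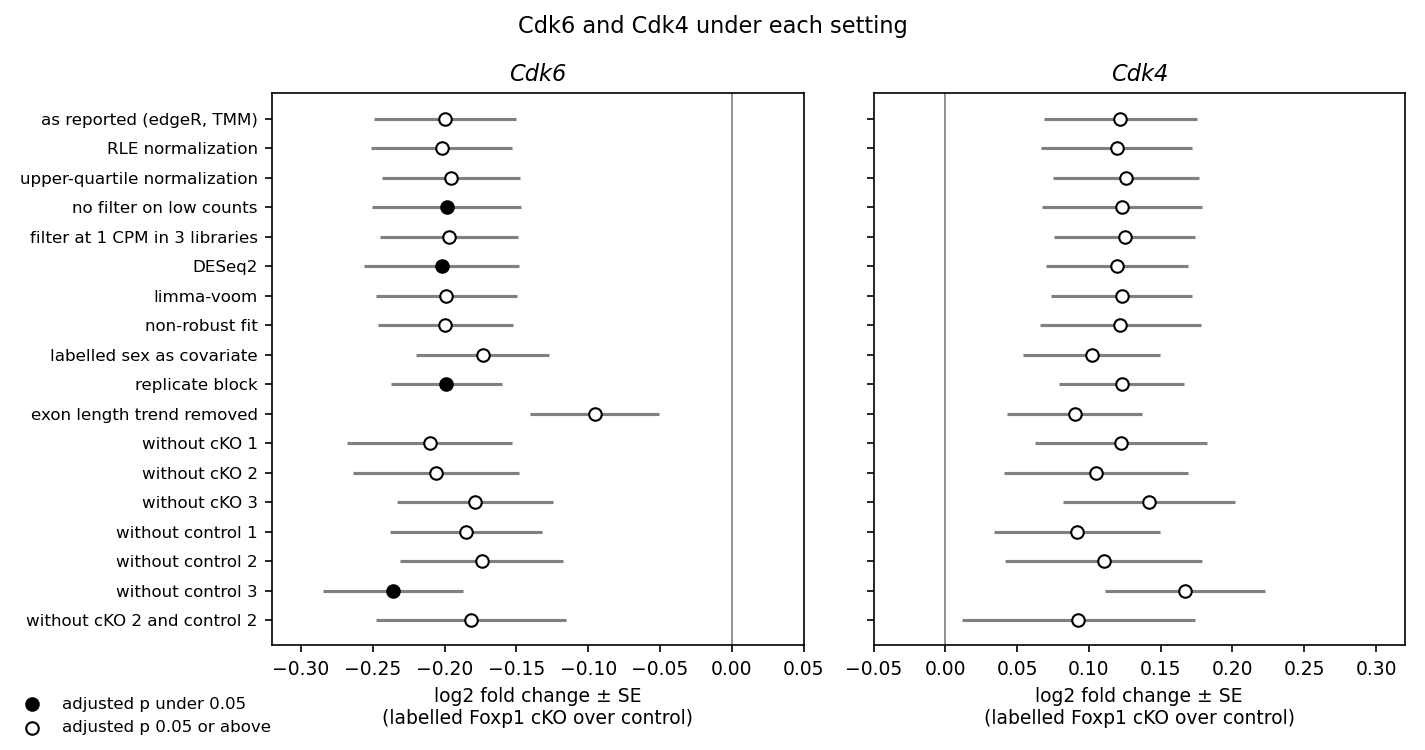
Log2 fold change, libraries labelled Foxp1 cKO over those labelled control (horizontal axis), of Cdk6 (left) and Cdk4 (right) in the fit reported and in each of 17 alternatives (rows), with bars of 1 SE. Filled points have an adjusted p under 0.05, which Cdk6 reaches in 4 alternatives and Cdk4 in none, and the Cdk6 difference is smallest, at -0.10, with the exon length trend removed.

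Summed markers of amacrine and horizontal cells and of endothelium did not overlap between the groups, while the sums of all other marker lists overlapped. Of single tested genes, 20.1% did not overlap. Amacrine and horizontal cell markers (6 of 6 tested, all with a log2 fold change under 0) summed to 500 to 521 CPM in cKO-labelled libraries. They summed to 568 to 614 CPM in control-labelled libraries. Prox1 and Tfap2b passed the edgeR threshold, and these and Tfap2a did not overlap between the groups. Onecut1, Onecut2 and Ptf1a did overlap, with Ptf1a at 34.4 to 36.4 CPM for the cKO label against 33.0 to 39.3 CPM for the control label. Endothelial markers (4 of 5 tested, 2 higher and 2 lower, none at 0) summed to 297 to 306 CPM in cKO-labelled libraries against 328 to 353 CPM in control-labelled libraries. Nearly all of it was Kdr, which retinal progenitors also express, with Cdh5 at 0.25 to 0.94 CPM in all 6. Neurogenic precursor markers (7 of 7 tested, 5 higher and 2 lower) summed to 2013 to 2078 CPM in cKO-labelled libraries and 1870 to 2025 CPM in control-labelled libraries, which overlapped. Of these Atoh7, a factor of newly born retinal neurons, passed the edgeR threshold (log2 fold change 0.30, SE 0.056, adjusted p 0.0182). Atoh7 was at 545, 551 and 504 CPM in cKO-labelled libraries 1, 2 and 3, against 437, 407 and 459 CPM in control-labelled libraries 1, 2 and 3. The part of these cells in the Cdk6 and Cdk4 differences was not tested.

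Of the inhibitors, Cdkn1b, the gene of p27, was slightly higher in cKO-labelled libraries without passing the test. Cdkn1b (ENSMUSG00000003031, chromosome 6, 134920401 to 134925513, plus strand) was at 182, 185 and 189 CPM in cKO-labelled libraries 1, 2 and 3, and at 173, 173 and 179 CPM in control-labelled libraries 1, 2 and 3. The groups did not overlap. The log2 fold change was 0.086 (SE 0.048, 95% interval -0.013 to 0.18, edgeR adjusted p 0.388), and it was 0.08 both with the length trend removed and without the 2 libraries that go against their labelled sex.

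The INK4 inhibitors overlapped between the groups. Cdkn2c (ENSMUSG00000028551, chromosome 4, 109660876 to 109667189, minus strand) was at 45.1, 42.6 and 44.9 CPM in cKO-labelled libraries, against 43.1, 48.1 and 42.0 CPM in control-labelled libraries (log2 fold change -0.0061, SE 0.064, 95% interval -0.14 to 0.13, edgeR adjusted p 0.978). Cdkn2d (ENSMUSG00000096472, chromosome 9, 21288410 to 21291407, minus strand) was at 29.9, 31.6 and 31.4 CPM in cKO-labelled libraries, against 27.8, 30.7 and 33.6 CPM in control-labelled libraries (log2 fold change 0.014, SE 0.074, 95% interval -0.14 to 0.17, edgeR adjusted p 0.953). Both genes spread more widely in control-labelled libraries. The SD of Cdkn2c was 1.41 CPM for the cKO label and 3.27 CPM for the control label, and that of Cdkn2d was 0.929 CPM for the cKO label and 2.89 CPM for the control label. That difference in spread was not tested. Without the libraries labelled cKO 2 and control 2 the log2 fold change was 0.082 for Cdkn2c and 0.0016 for Cdkn2d.

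Of the level of the 3 inhibitors per kilobase, Cdkn1b gave 53.0% ± 0.231 in cKO-labelled libraries and 51.6% ± 1.30 in control-labelled libraries (SD, n = 3 each, exact two-sided permutation p 0.2). That difference, 1.37 percentage points, was 0.692 without the libraries labelled cKO 2 and control 2. Ccnd1 was at 23.9, 23.5 and 22.5 times the level of Cdkn1b per kilobase in cKO-labelled libraries 1, 2 and 3. In control-labelled libraries 1, 2 and 3 it was at 24.5, 25.5 and 24.8 times that level. The groups did not overlap, with an exact two-sided permutation p of 0.1, the smallest possible, and the difference was -1.47 without the libraries labelled cKO 2 and control 2, against -1.62 with all 6. Both quantities were formed after the values had been seen.

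Rb1 (ENSMUSG00000022105, chromosome 14, 73183673 to 73325822, minus strand), the substrate of the cyclin D kinases and repressor of E2F factors, was at 47.6, 45.7 and 45.1 CPM in cKO-labelled libraries and at 52.1, 50.4 and 44.2 CPM in control-labelled libraries. The library labelled control 3 was the lowest of the 6, so the groups overlapped. The log2 fold change was -0.085 (SE 0.063, 95% interval -0.22 to 0.046, edgeR adjusted p 0.553), and it was -0.056 without the 2 libraries that go against their labelled sex. It was -0.15 without the library labelled control 3, -0.036 without the library labelled control 1 and -0.035 with labelled sex as a covariate. That covariate does not adjust for sex, since 2 libraries go against it.

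**Figure D4:**
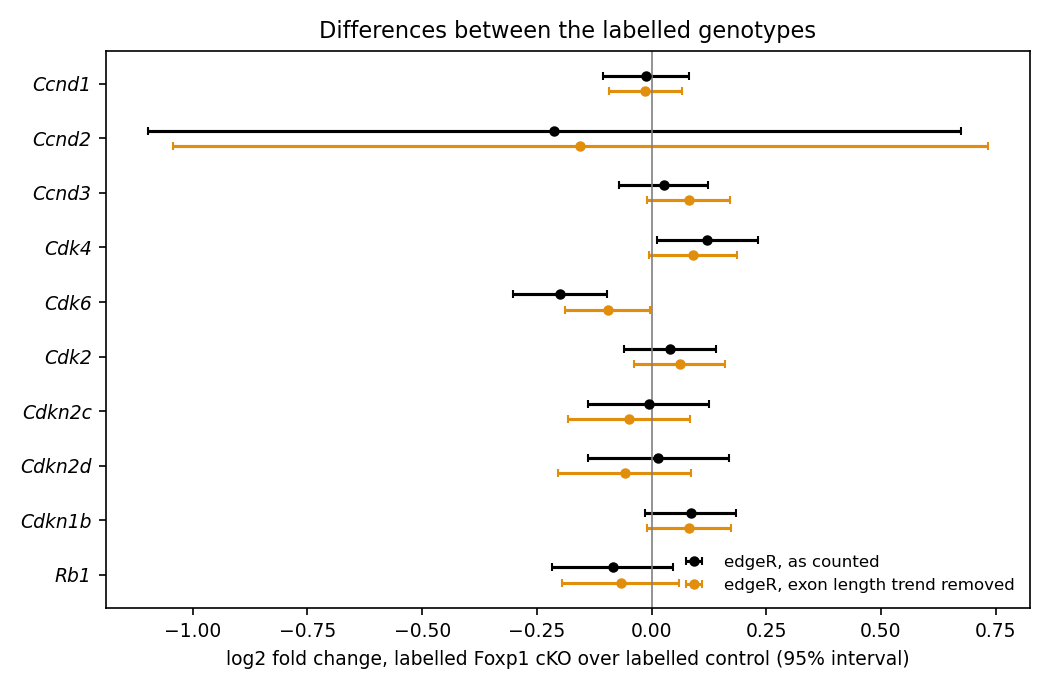
Log2 fold change of each gene, libraries labelled Foxp1 cKO over those labelled control (horizontal axis), with 95% intervals, from edgeR as counted (black) and with the exon length trend of each library removed (orange, just beneath). Intervals other than that of Ccnd2 run no lower than -0.30 and no higher than 0.23, and the Cdk6 value of -0.20 is -0.10 in the second fit.

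Several members share exonic bases with a gene on the opposite strand, and, although the library kit keeps strand, whether the authors counted by strand is not given in the sources used here. Cdk4 shares 641 bases with Tspan31, which averaged 1964 counts against 11490 for Cdk4. Rb1 shares 488 bases with Rcbtb2 (2784 counts against 1167 for Rb1) and 408 with Lpar6. Ccnd3 shares 361 with Bysl, Ccnd1 shares 1100 with LTO1, Cdk2 shares 34 with Pmel, and Ccnd2 and Cdk6 overlap antisense genes of under 1 count per library on average. Cdkn1b, Cdkn2c and Cdkn2d overlap no other exon.

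The genes that act with these members in G1 showed no call either. Of 15 partners of the restriction point (cyclins E and A2, the Rb relatives, E2F and DP factors) 0 passed the edgeR threshold, 7 were higher and 8 lower, with a median log2 fold change of -0.026. Ccna2, the S phase cyclin, was at 226 ± 14.2 CPM in cKO-labelled libraries and 224 ± 11.4 CPM in control-labelled libraries, and Tfdp2, a partner of E2F factors, averaged 168 ± 2.86 CPM for the cKO label against 176 ± 4.08 CPM for the control label (SD, 3 per group). Ccne2 (log2 fold change 0.18, edgeR adjusted p 0.235) and E2f7 (-0.10, edgeR adjusted p 0.295) had an unadjusted p under 0.05.

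Of 5 other inhibitors, 3 were tested and 0 passed, with 2 higher and 1 lower (median log2 fold change 0.16). That median is the value of Cdkn3 alone. Cdkn1c, the gene of p57, was at 178 ± 15.2 CPM in cKO-labelled libraries against 155 ± 17.0 CPM in control-labelled libraries (SD, n = 3 per group; log2 fold change 0.19, edgeR adjusted p 0.284). Cdkn1a, the p53 target p21, was at 13.9 ± 0.103 CPM for the cKO label against 16.1 ± 2.09 CPM for the control label (SD, n = 3 per group; log2 fold change -0.21, edgeR adjusted p 0.263). Cdkn1c and Cdkn1a had an unadjusted edgeR p under 0.05, in opposite directions. Cdkn2a and Cdkn2b, at or under 0.301 CPM on average in each group, were too low to test.

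A list of 16 genes covered activators and inhibitors of cell cycle kinases and the turnover of their regulators. Of these, 0 passed in edgeR, 11 were higher and 5 lower (median 0.059). Cdc37, a chaperone partner that loads Cdk4, was at 198 ± 3.87 CPM in cKO-labelled libraries against 191 ± 0.759 CPM in control-labelled libraries (SD, n = 3 each). Skp1a, a subunit of the ligase that removes p27, averaged 206 ± 8.62 CPM in cKO-labelled libraries and 182 ± 14.5 CPM in control-labelled libraries (SD, 3 per group), a log2 fold change of 0.18 with an adjusted p of 0.112 by edgeR and 0.0440 by DESeq2. Skp1a, Cks1b (log2 fold change 0.15, edgeR adjusted p 0.143) and Mnat1 (0.20, edgeR adjusted p 0.175) had an unadjusted p under 0.05.

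Downstream, 0 of 20 E2F target genes of S phase passed, with 12 higher and 8 lower (median 0.047). Mcm7, a subunit of the replicative helicase, was at 298 ± 9.51 CPM in cKO-labelled libraries against 288 ± 7.44 CPM in control-labelled libraries, and Pcna, the sliding clamp, was at 281 ± 15.9 CPM for the cKO label against 256 ± 15.7 CPM for the control label (SD, n = 3 per group; log2 fold change 0.14, edgeR adjusted p 0.231). Of 10 proliferation markers 0 passed, with 5 higher and 5 lower (median 0.011). Top2a averaged 774 ± 22.3 CPM in cKO-labelled libraries against 799 ± 31.8 CPM in control-labelled ones, and Mki67, a marker of cycling cells, 499 ± 38.6 CPM for the cKO label against 606 ± 114 CPM for the control label (SD, 3 per group). The background of calls over all tested genes was 0.781%, limma-voom called 0 in each list, and DESeq2 called Skp1a alone.

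**Figure D5:**
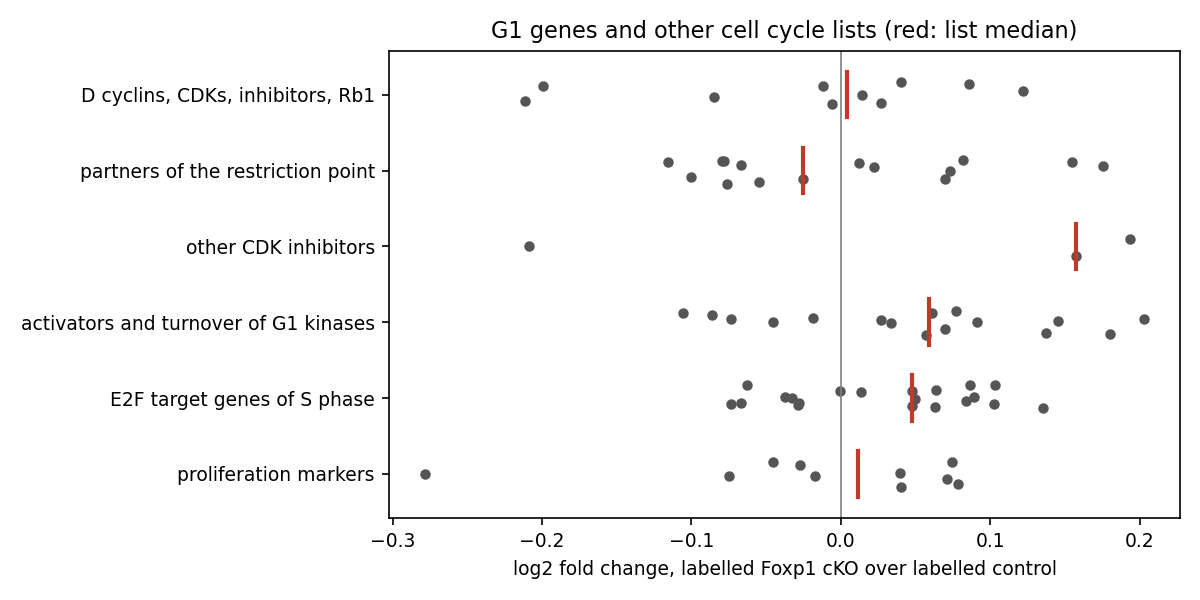
Log2 fold change of each tested gene, libraries labelled Foxp1 cKO over those labelled control (horizontal axis), for the 10 G1 genes (top row) and 5 other cell cycle lists, with the list median as a red line. Points are genes, and their height within a row carries no value. The medians run from -0.026 for the restriction point partners to 0.16 for the 3 other inhibitors tested, of which 2 were higher and 1 lower.

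The genes whose profile over the 6 libraries lay nearest to that of Ccnd1 were Vrk3, Cdc5l, Mtmr9, Dnajc5 and Gorasp2. Their centred log2 CPM differed from that of Ccnd1 by 0.0096 to 0.0112 on average, among 17122 genes whose SD over the libraries was at least that of Ccnd1, 0.026. They are the closest of that many candidates to a nearly flat profile. Whether the nearness goes beyond counting noise was not tested. Of all tested genes, 0.880% had a smaller SD than Ccnd1. That share was not matched for level, and the SD of log2 CPM falls as counts rise. It therefore does not show that Ccnd1 varied less than other genes of its abundance.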

How the data were processed

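RNA sequencing of mouse retinas gave 1 library per animal, 3 per labelled genotype. The tools were DESeq2 1.32.0, featureCounts 1.5.1, STAR 2.7.6a and cutadapt 2.8 with build mm10, per the submitters' processing notes, their settings being not given in the sources used here. The authors deposited whole-number counts per gene, and a table with a mean normalized count (a signal value), a raw and an adjusted p-value, a test statistic (a score), and a log2 fold change and its error, per the file headers.

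rRNA-depleted total RNA was sequenced from a strand-keeping kit, per the labels' protocols. Counts were matched to samples by the description in the labels. Genes kept by filterByExpr were tested with edgeR 4.0.16 (R 4.3.3): TMM scaling, genotype alone, robust quasi-likelihood, Benjamini-Hochberg adjustment over 17275 genes, threshold 0.05. Standard errors were derived from F. CPM used TMM-scaled library sizes, and CPM per kilobase used summed exon lengths (GENCODE M21). The length trend was a lowess curve (span 0.3) per library, entered as an offset. Alternatives used DESeq2 1.42.0, limma-voom (limma 3.58.1), other scalings, filters and covariates, and left out libraries. Within each labelled group, replicates differed beyond sampling noise (chi-square over degrees of freedom 7.39 to 12.46), so none repeated another library of its group. Pairs across the groups were not compared. The fits were checked on simulated counts.

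Members and lists were chosen with earlier results of these data known. By rule, the text names the members, the label checks, up to 4 called genes per direction of each list or else the 2 with the highest CPM, and the 5 genes nearest to Ccnd1. The ratios of Cdk6 to Cdk4 and of Ccnd1 to Cdkn1b, the share of Cdkn1b and their alternatives were chosen after seeing the data. Other genes with an unadjusted p under 0.05, Cdkn3, single markers (Pax2, Aldh1l1, Gfap, Lim2, S100b, Kdr, Cdh5, Prox1, Tfap2a, Tfap2b, Onecut1, Onecut2, Ptf1a, Atoh7) and overlapping genes were named after their values were seen. Skp1 is listed as Skp1a. The authors' deposited table lacks an adjusted p for 13487 of 21080 genes, none of them a member.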

Additional observations from a re-analysis of the deposited data

How the results depend on the processing

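The count of called members was 0 with RLE or upper-quartile scaling, a filter at 1 CPM, limma-voom, a non-robust fit, labelled sex as a covariate, the exon length trend removed and the libraries labelled control 2 and cKO 2 left out. It was 1, Cdk6, without a filter, with DESeq2 and with the replicate block, and 0 to 1 with single libraries left out. No scaling moved the median of all genes by over 0.1. Over all genes the 135 calls became 742 without a filter, 83 at 1 CPM, 566 with DESeq2, 10 with a non-robust fit, 38 with the length trend removed and 9 without the libraries labelled control 2 and cKO 2, and 19 to 778 with single libraries left out. Same-numbered libraries deviated with correlations of 0.20, -0.12 and 0.36, and not every library correlated best with its own number. Deviations from the mean of a small group constrain each other, so these correlations cannot decide whether the numbers pair the libraries. The replicate block gave 1065 calls and Cdk6 an edgeR adjusted p of 0.00864.

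Cdk4, Cdk6, Cdk2, Cdkn1b and Rb1 kept their direction in all 17 alternatives. Rb1 ran from -0.15 to -0.036 with single libraries left out. Sign changes were confined to members within 1 SE of 0, and the cause was not tested. Labelled sex goes against the sex-linked genes in the libraries labelled control 2 and cKO 2, so that setting does not adjust for sex. Cdkn2c was at 0.021 with labelled sex and 0.082 without the libraries labelled control 2 and cKO 2, and -0.043 to 0.056 with single libraries left out. Cdkn2d was at -0.029 with labelled sex and -0.059 with the length trend removed, and -0.052 to 0.085 with single libraries left out. Ccnd2 was at 0.0069 without the libraries labelled control 2 and cKO 2, and -0.43 to 0.036 with single libraries left out. With single libraries left out Ccnd1 ran from -0.032 to 0.0015 and Ccnd3 from -0.012 to 0.060. The share of D-type cyclin level, as cKO minus control in percentage points, was -0.0272 for Ccnd1 and 0.00477 for Ccnd2 without the libraries labelled control 2 and cKO 2. With single libraries left out it ran from -0.0549 to 0.0849 for Ccnd1, -0.0877 to 0.0139 for Ccnd2 and 0.00280 to 0.0607 for Ccnd3. The 95% intervals above show what 3 animals per group resolve at this depth, widest for Ccnd2.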
